A study of Mus musculus with 16 samples.

Results

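The 10 genes described here are 9 lysosomal cathepsins (Ctsa, Ctsb, Ctsc, Ctsd, Ctsf, Ctsh, Ctsl, Ctss and Ctsz) and Cst3, which encodes cystatin C. They were chosen by gene name, with earlier results of these data known, from the 24421 rows of a count table of CD11b+ mouse brain cells. All 10 were among the 14565 genes that passed the filter on low counts. RNA-Seq libraries came from female C57BL/6J mice, with 4 libraries for CON, 5 for MAL, and 7 for MAL-BG. CON mice ate a standard chow after weaning and MAL mice ate an isocaloric chow low in protein and fat for about a month. MAL-BG mice ate the MAL chow and were gavaged with a mixture of E. coli and Bacteroidales species. Per the Methods, mice of the other groups were gavaged with PBS in the same period. CD11b is a surface integrin of microglia and other myeloid cells, so the magnetic enrichment was for a surface protein and not for 1 cell type. There was no group that received bacteria on the standard chow, so the effect of the bacteria was measured only in malnourished mice. The labels name cortical tissue and the Methods name whole cerebra, and libraries are numbered here in the order of the running numbers of their group's columns, since those numbers match no sample title.

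Cathepsins are proteases that digest proteins in lysosomes, the acidic compartments in which microglia break down engulfed debris. Most are cysteine proteases, but Ctsd is an aspartic protease and Ctsa is a serine carboxypeptidase. They are made as inactive precursors, are carried to the lysosome largely on mannose 6-phosphate receptors, and are activated by removal of a propeptide. Cystatin C is a secreted inhibitor of the cysteine cathepsins and does not block Ctsd or Ctsa. Ctsd, Ctss, and Cst3 are among the most abundant transcripts of microglia.

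The promoters of Ctsd, Ctsa, Ctss, and Cst3 are shown because they cover the 3 members with the highest counts and the 2 members that hold the motif of lysosomal genes. Each is the RefSeq sequence on GRCm38.p6 from 250 bases before to 50 bases after a listed transcription start, written 5′ to 3′ on the coding strand. The listed start was at the outermost start of the GENCODE gene for Ctss, and 180, 211, and 900 bases downstream of it for Cst3, Ctsd, and the Ctsa window shown. The promoter of Ctsd is chr7:142387778-142388077 on the minus strand, the shown one of 2 listed for Ctsa is chr2:164833523-164833822 on the plus strand, that of Ctss is chr3:95526536-95526835 on the plus strand, and that of Cst3 is chr2:148875463-148875762 on the minus strand. Capitals mark the motifs CACGTG (the E-box core), TCACGTGA (the core of the CLEAR element, the E-box extended by 1 base on each side, bound by Tfeb and related factors) and GAGGAAGT or its reverse complement (a core bound by PU.1, a myeloid factor).
Ctsd: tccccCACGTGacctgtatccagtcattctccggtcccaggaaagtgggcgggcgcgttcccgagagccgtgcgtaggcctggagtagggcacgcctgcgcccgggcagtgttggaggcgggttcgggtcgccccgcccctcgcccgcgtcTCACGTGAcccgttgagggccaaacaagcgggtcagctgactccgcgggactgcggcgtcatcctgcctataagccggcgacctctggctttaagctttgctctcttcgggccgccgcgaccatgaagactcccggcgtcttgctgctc
Ctsa: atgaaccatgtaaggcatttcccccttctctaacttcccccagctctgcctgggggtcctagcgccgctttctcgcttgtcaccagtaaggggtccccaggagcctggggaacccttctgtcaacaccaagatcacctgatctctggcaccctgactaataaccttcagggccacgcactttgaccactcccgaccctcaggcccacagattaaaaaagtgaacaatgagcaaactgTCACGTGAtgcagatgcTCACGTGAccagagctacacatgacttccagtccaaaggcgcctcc
Ctss: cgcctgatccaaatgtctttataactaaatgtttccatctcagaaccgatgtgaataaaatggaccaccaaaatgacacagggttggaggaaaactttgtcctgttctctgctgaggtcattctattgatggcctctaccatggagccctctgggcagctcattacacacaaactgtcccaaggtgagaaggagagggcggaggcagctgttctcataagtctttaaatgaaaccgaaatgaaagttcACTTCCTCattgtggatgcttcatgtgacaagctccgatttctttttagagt
Cst3: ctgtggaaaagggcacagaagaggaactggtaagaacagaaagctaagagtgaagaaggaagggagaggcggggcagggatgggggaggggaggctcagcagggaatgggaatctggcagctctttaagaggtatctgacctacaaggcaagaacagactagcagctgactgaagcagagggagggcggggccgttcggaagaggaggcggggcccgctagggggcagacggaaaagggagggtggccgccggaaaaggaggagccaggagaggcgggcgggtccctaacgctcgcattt
With positions counted from the start, the motifs of Ctsd began at -245 and -99, and only the second held the longer CLEAR core. In the Ctsa window shown both copies were CLEAR cores, which began at -13 and 4. The other listed Ctsa promoter, chr2:164832622-164832921 at the outermost start of the gene, held none of the 3 motifs, and the window shown was chosen because it holds them. In Ctss the PU.1 core began at -2. The Cst3 window likewise held none.

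A promoter was listed for 8 of the 10 members, all but Ctsb and Ctsh, and a gene was counted where any of its listed promoters held the motif. The E-box core stood, on either strand, in the promoters of 4 of the 8 (Ctsa, Ctsd, Ctsf, and Ctsl), against 8.09% of all genes with a listed promoter. The longer CLEAR core, which contains the E-box core, stood in 2 of the 8 (Ctsa and Ctsd), against 1.12% of genes. The PU.1 core stood in 2 of the 8 (Ctsc and Ctss), against 3.69% of genes. These matches describe letters in the window and are not binding sites measured here.

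Each CON library held between 10312703 and 13461574 counts on genes, each MAL library between 10864121 and 12819982, and each MAL-BG library between 14191791 and 18705202. The lowest count of any member in any library was 1541 (Ctsf), for which counting alone gives an error of 2.55%, so the spread between libraries set the precision. CPM below is the count of a gene relative to the library size after TMM scaling. A gene was a DEG where its adjusted p was under 0.05 and its log2 fold change was past 0.58 in size, from the quasi-likelihood test of edgeR, adjusted over all 14565 genes by the method of Benjamini and Hochberg.

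With bacterial exposure, most of the cathepsins and cystatin C were higher in the CD11b+ fraction, while none of them passed the test for the diet alone. Of the 10 members, 7 (Ctsa, Ctsd, Ctsf, Ctsl, Ctss, Ctsz, and Cst3) were DEGs higher in MAL-BG than CON (11.4% of all genes). Only 1 (Ctsf) was a DEG when libraries were scaled to their microglia markers. With that scaling 0.577% of all genes were DEGs that were higher and 59.4% DEGs that were lower. The same 7 members were DEGs that were higher in MAL-BG than in MAL, where 10.2% of all genes were. Of them, 2 (Ctsd and Ctsf) were DEGs with the marker scaling. In that case 0.604% of all genes were DEGs that were higher and 55.1% DEGs that were lower. The comparisons share the 7 MAL-BG libraries. Without the fold change threshold, 9 members were higher than in CON at an adjusted p under 0.05 (19.8% of all genes) and 8 were higher than in MAL (20.2% of all genes). With single libraries left out these counts were 7 to 9 in both comparisons, and 7 members were higher than in CON with 2 groups only. The median log2 fold change of the members was 0.80 against CON and 0.86 against MAL, while the median of all genes was -0.04 and -0.03. Of all DEGs under TMM scaling, 34.4% were higher than CON and, in the other comparison, 33.4% were higher than MAL, and these shares were 57.8% and 58.3% when libraries were scaled to the mean log2 CPM of all genes, with 10 and 9 members among the DEGs that were higher, as were 22.6% and 21.4% of all genes. In 6 members (Ctsd, Ctsf, Ctsl, Ctss, Ctsz, and Cst3) all 7 MAL-BG libraries lay above all 9 other libraries, which was so for 6.17% of all genes.

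**Figure D1:**
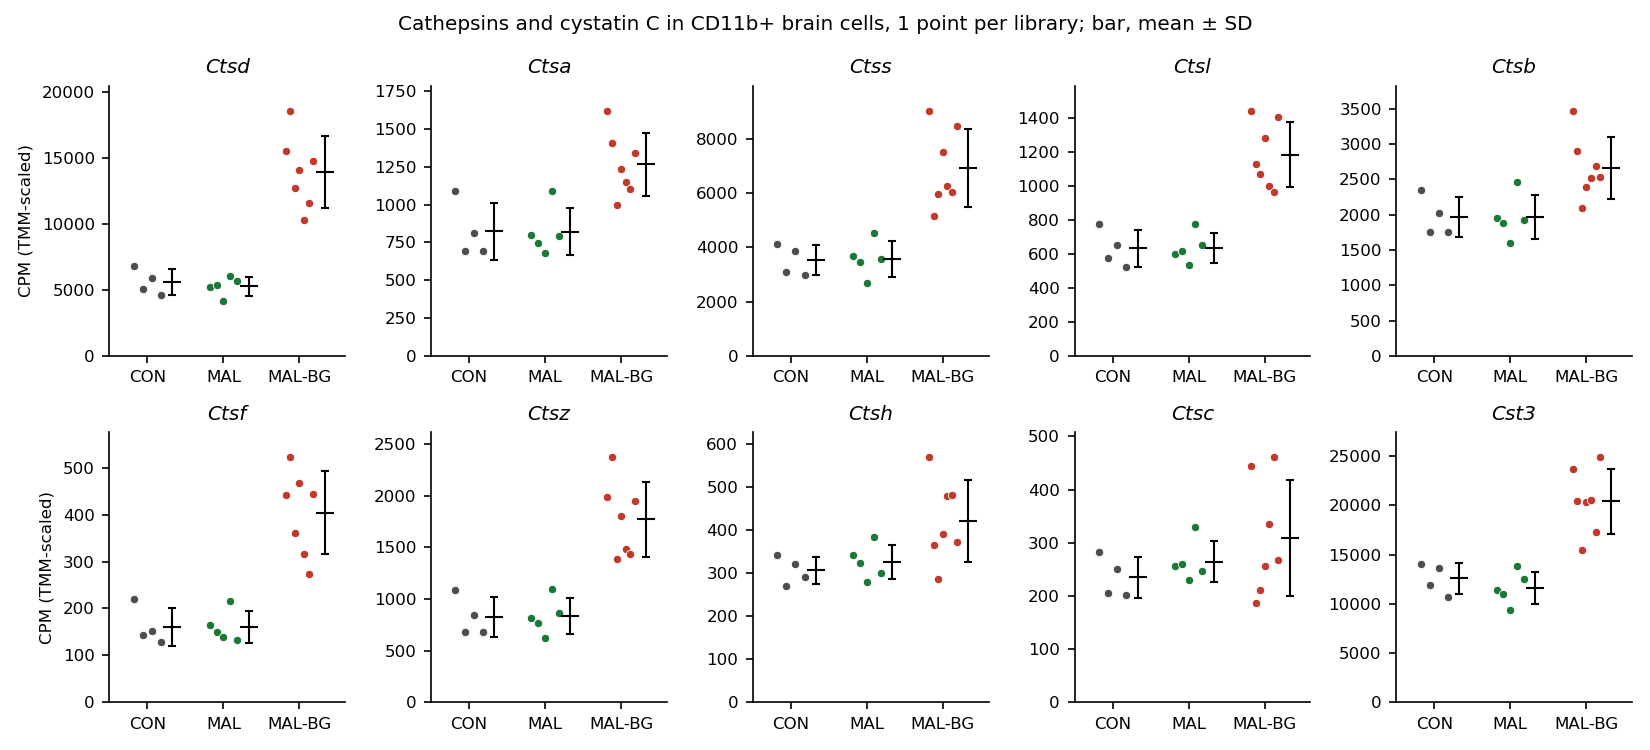
TMM-scaled CPM of the 10 genes (y axis, from 0) in each CON (4), MAL (5), and MAL-BG (7) library (x axis), with 1 point per library and the mean ± SD as a bar. The MAL-BG points of Ctsd, Ctsf, Ctsl, Ctss, Ctsz, and Cst3 lie above every CON and MAL point, while those of Ctsa, Ctsb, Ctsc, and Ctsh overlap them. With libraries scaled to microglia markers instead, Ctsa, Ctsb, Ctsc, Ctsh, and Cst3 turn lower than in CON.

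Levels of cell type markers in the fraction also differed between MAL-BG and the other groups, while 0 of them were DEGs between MAL and CON. The summed CPM of 15 microglia markers was 15550.0 to 24935 in CON, 15938 to 26467 in MAL, and 25493 to 41130.2 in MAL-BG. Of the 15 markers, 10 were DEGs with a higher level in MAL-BG than CON, where 11.4% of all genes were. The defining markers Cx3cr1 and Tmem119 rose by 1.33 and 1.08 on the log2 scale, whereas P2ry12 and Csf1r had values of 0.38 and 0.37 and were not DEGs. The summed CPM of 10 choroid plexus markers was 10770.1 to 41544 in CON, 5021 to 32687 in MAL, and 1480.2 to 13230 in MAL-BG, with 10 of 10 being DEGs with a lower level in MAL-BG than CON, where 21.7% of all genes were. DEGs that were lower also included 5 of 8 astrocyte and 7 of 8 neuron markers, and 8 of 9 tested neutrophil markers were DEGs that were higher (11.4% of all genes). Neutrophil markers summed to 481 to 1223 CPM in CON, to 515 to 1083 in MAL, and to 584 to 13397 in MAL-BG, with the highest value in library MAL-BG 5. No marker of these lists was at 0 in all libraries. In bulk samples fewer cells of a type and less RNA per cell cannot be told apart.

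In other lists, 1 of 8 border macrophage and 3 of 8 monocyte markers were DEGs lower than in CON (21.7% of all genes). DEGs higher in MAL-BG were 3 of 8 oligodendrocyte, 2 of 8 endothelium, and 1 of 4 tested lymphocyte markers (11.4% of all genes). Border macrophage markers summed to 824 to 2288 CPM in CON, 1002 to 2015 in MAL, and 860.2 to 1341 in MAL-BG. Monocyte markers summed to 1245 to 2223, 1381 to 1880.2, and 486 to 1687 CPM. The part of these marker differences in the results on the cathepsins was not tested.

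When libraries were scaled to the mean log2 CPM of the 15 microglia markers, the members took different signs, that is, some were higher and some lower in MAL-BG relative to these markers. Ctsf was 0.60 higher in MAL-BG than in CON on the log2 scale (adjusted p = 0.0105), and Ctsd was 0.57 higher (adjusted p = 0.00584), just under the fold change threshold. Ctsz was 0.36 higher (adjusted p = 0.0435), and Ctss and Ctsl had values of 0.20 and 0.15 (adjusted p = 0.168 and 0.347). Cst3 and Ctsa turned to -0.08 and -0.14 (adjusted p = 0.537 and 0.302). Ctsb, Ctsh, and Ctsc turned to -0.35, -0.35, and -0.41 (adjusted p = 0.00649, 0.0135, and 0.0255), so they were lower relative to the markers. The median of all genes under this scaling was -0.82, and 59.4% of all genes were then DEGs that were lower and 0.577% DEGs that were higher. Against MAL the values were 0.71 for Ctsd (adjusted p = 7.41e-04), 0.66 for Ctsf (adjusted p = 0.00386), 0.41 for Ctsz (adjusted p = 0.0167), and 0.10 for Cst3 (adjusted p = 0.403), and Ctsb, Ctsh, and Ctsc were at -0.27, -0.36, and -0.52 (adjusted p = 0.0195, 0.00772, and 0.00493).

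**Figure D2:**
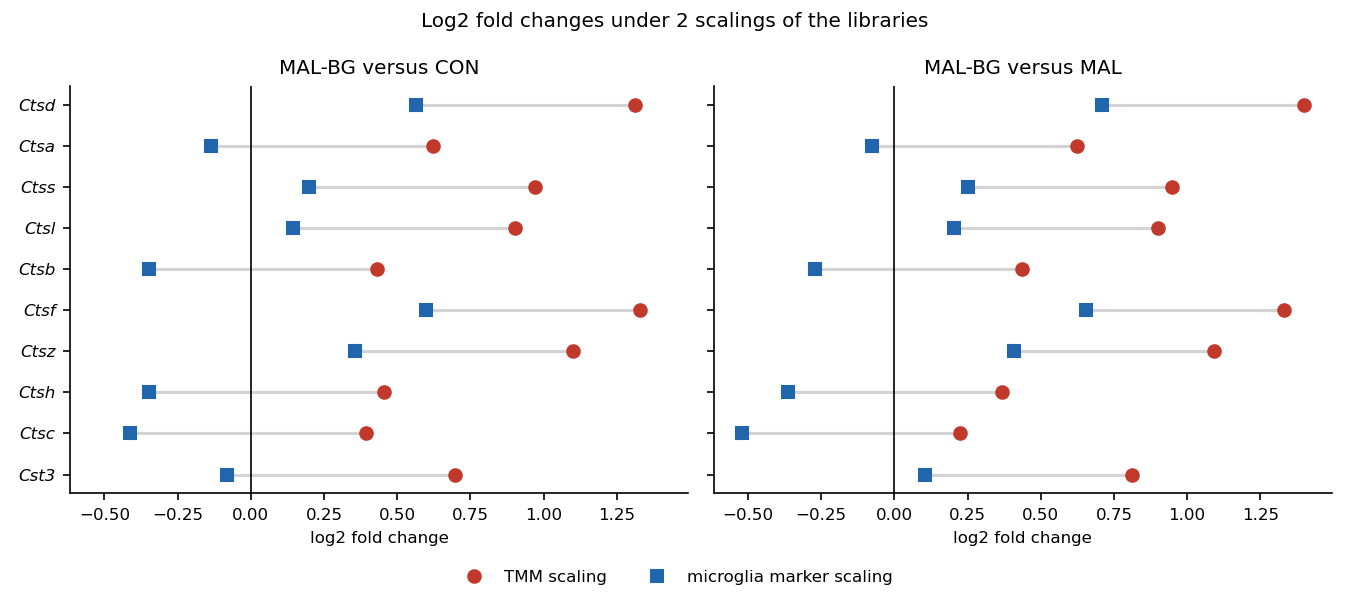
Log2 fold changes of the 10 genes (x axis) in MAL-BG against CON (left) and against MAL (right) under TMM scaling (red circles) and under scaling to 15 microglia markers (blue squares). Ctsd, Ctsf, Ctsz, Ctss, and Ctsl stay right of 0 in both panels, Ctsa, Ctsb, Ctsc, and Ctsh cross to the left in both, and Cst3 crosses against CON only (-0.08) and is at 0.10 against MAL.

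Ctsd, the main aspartic protease of lysosomes, had the clearest difference. Its CPM was 6846, 5103, 5943, and 4599.6 in the 4 CON libraries, and 5202.5, 5380.5, 4147, 6068, and 5662 in the 5 MAL libraries. In MAL-BG it ran from 10340.4 to 18616 with a median of 14106. The lowest MAL-BG library was thus above the highest of the other 9. Its mean ± SD was 13955 ± 2746 CPM over the 7 MAL-BG libraries, against 5623 ± 986 over the 4 of CON and 5292 ± 719 over the 5 of MAL. The fold against CON was 2.48 (95% CI 1.88 to 3.28; log2 fold change 1.31, SE 0.19, adjusted p = 9.17e-05), and that against MAL was 2.64 (95% CI 2.04 to 3.41; adjusted p = 3.34e-05). By mean CPM Ctsd was rank 6 of all tested genes in CON, rank 9 in MAL, and rank 3 in MAL-BG. Relative to the mean log2 level of the microglia markers within each library, it was at 2.56 to 2.66 in CON, 2.32 to 2.63 in MAL, and 2.67 to 3.68 in MAL-BG on the log2 scale, so all MAL-BG libraries were above the other libraries on that scale too, but the lowest MAL-BG library was close to the highest CON library. The Ctsd gene (ENSMUSG00000007891.16) lies on chromosome 7 from 142375911 to 142388038 (GRCm38, minus strand), and 808 of its exon bases (34.4%) are shared with Gm49369 on the same strand, between which the counting could have split or dropped reads.

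Ctsa, the carboxypeptidase that protects lysosomal sialidase and galactosidase, differed less. It had 693 to 1092 CPM in CON, 681 to 1090.0 in MAL, and 998 to 1622 (median 1239) in MAL-BG, where 6 of 7 libraries were above all CON libraries. The fold was 1.54 (95% CI 1.20 to 1.98; log2 fold change 0.62, SE 0.17, adjusted p = 0.00747) against CON and 1.54 (95% CI 1.22 to 1.94; adjusted p = 0.00486) against MAL, and the log2 value turned to -0.14 and -0.08 with marker scaling. The value was close to the fold change threshold, and Ctsa was no longer a DEG against CON without CON 2 or CON 4 (0.55 in both cases), nor against MAL without MAL 3 (0.56). Its 2 listed partners were Glb1, the galactosidase, which was a DEG with a log2 fold change of 0.74 (SE 0.10, adjusted p = 5.60e-05) against CON, and Neu1, the sialidase, with 0.37 (SE 0.19, adjusted p = 0.127). With marker scaling neither was a DEG that was higher.

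Ctss, the cysteine endopeptidase that stays active near neutral pH and trims the invariant chain of MHC class II, was the second most abundant cathepsin by counts. Its CPM was 4129, 3105, 3865, and 2996 in CON, and 3691, 3444, 2672, 4519, and 3582 in MAL. In MAL-BG it ran from 5151 to 9036 with a median of 6246, and no library of the other groups reached that range. The fold was 1.96 (95% CI 1.48 to 2.59; log2 fold change 0.97, SE 0.19, adjusted p = 7.85e-04) against CON and 1.93 (95% CI 1.49 to 2.497; adjusted p = 5.56e-04) against MAL. Its gene (ENSMUSG00000038642.10) is at 95526786 to 95556403 on the plus strand of chromosome 3 (GRCm38), with no exon shared with another gene.

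The other cysteine endopeptidases moved by unequal amounts. Ctsl, a broad endopeptidase of the lysosome, had 525 to 776 CPM in CON, 532 to 775 in MAL, and 963 to 1442 (median 1126) in MAL-BG, with folds of 1.87 (95% CI 1.49 to 2.34; adjusted p = 2.87e-04) against CON and 1.87 (95% CI 1.52 to 2.30; adjusted p = 1.71e-04) against MAL. Exons of Ctsl overlap a pseudogene (Gm49230, 395 bases, same strand) and an antisense gene (Gm47123, 1742 bases), so its counts are less certain than those of Ctss. Exons of Ctsb (774 bases, Fdft1), Ctsa (495 bases, Pltp, and 324 bases, Neurl2), and Ctsz (10 bases, Nelfcd) also overlap genes on the opposite strand. Ctsf, a cathepsin with a long propeptide, was the least abundant member in CON and had the highest fold with Ctsd. It was at 129 to 219 CPM in CON, 133 to 217 in MAL, and 274 to 522 (median 442) in MAL-BG, which is a fold of 2.51 (95% CI 1.88 to 3.36; log2 fold change 1.33, SE 0.20, adjusted p = 1.17e-04) against CON and 2.52 (95% CI 1.92 to 3.29; adjusted p = 6.13e-05) against MAL. Ctsb, which is both an endopeptidase and a dipeptidyl carboxypeptidase, was at 1752 to 2345 CPM in CON, 1595 to 2460.0 in MAL, and 2092 to 3474 (median 2532) in MAL-BG. Its groups overlapped, and the log2 fold change of 0.43 (SE 0.16, adjusted p = 0.0330) against CON and 0.44 (SE 0.15, adjusted p = 0.0224) against MAL passed the test but not the fold change threshold. The adjusted p of Ctsb against CON was 0.104 without CON 2, 0.101 without CON 4, 0.0630 without CON 3, 0.0567 without MAL-BG 1, and 0.0571 with 2 groups only, and against MAL it was 0.0506 without MAL 2 and 0.0688 without MAL 3.

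The 3 exopeptidases also differed from each other. Ctsz, a carboxypeptidase, was at 679 to 1092 CPM in CON, 623 to 1098 in MAL, and 1386 to 2374 (median 1800.1) in MAL-BG, and no MAL-BG library overlapped the others. Its fold was 2.15 (95% CI 1.61 to 2.85; log2 fold change 1.10, SE 0.20, adjusted p = 3.77e-04) against CON and 2.13 (95% CI 1.64 to 2.77; adjusted p = 2.33e-04) against MAL. Ctsh, an aminopeptidase, was at 271 to 343 CPM in CON, 279.8 to 385 in MAL, and 286 to 570.0 (median 390.3) with bacteria. The log2 fold change was 0.46 (SE 0.16, adjusted p = 0.0281) against CON and 0.37 (SE 0.15, adjusted p = 0.0521) against MAL, and it was a DEG in neither comparison. The adjusted p of Ctsh against CON was 0.0908 without CON 2, 0.0724 without CON 4, 0.0603 without MAL-BG 5, and 0.0651 with 2 groups only.

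Ctsc, the dipeptidyl peptidase that activates the granule serine proteases of neutrophils, mast cells, and cytotoxic lymphocytes, did not pass the test. Its CPM was 283, 206, 250.2, and 202 in CON, and 255, 259, 231, 330.2, and 246 in MAL. In MAL-BG it ran from 186 to 461 with a median of 268, so the lowest MAL-BG library was below every CON library and 3 of the 7 were above all of them. The coefficient of variation was 35.2% in MAL-BG, against 16.4% in CON and 14.5% in MAL. The log2 fold change was 0.39 (95% CI -0.08 to 0.86, adjusted p = 0.160) against CON and 0.23 (95% CI -0.21 to 0.66, adjusted p = 0.387) against MAL, intervals that hold both no change and a rise as high as those of several other members.

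Cst3, the inhibitor, was the most abundant member and was rank 1 among all tested genes in MAL-BG, rank 2 in CON, and rank 3 in MAL by mean CPM. Its CPM was 14006, 11971, 13694, and 10669 in CON, and 11368, 11055, 9379.5, 13804, and 12543 in MAL. In MAL-BG it ran from 15488 to 24913 with a median of 20499, above all of those libraries. The fold was 1.62 (95% CI 1.25 to 2.10; log2 fold change 0.70, SE 0.18, adjusted p = 0.00457) against CON and 1.75 (95% CI 1.38 to 2.23; log2 fold change 0.81, SE 0.16, adjusted p = 0.00104) against MAL. After an offset for length and GC content the log2 values were 0.51 and 0.55 (adjusted p = 0.0198 and 0.00829), which is under the fold change threshold. Cst3 (ENSMUSG00000027447.6) lies at 148871722 to 148875692 on the minus strand of chromosome 2 (GRCm38).

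**Figure D3:**
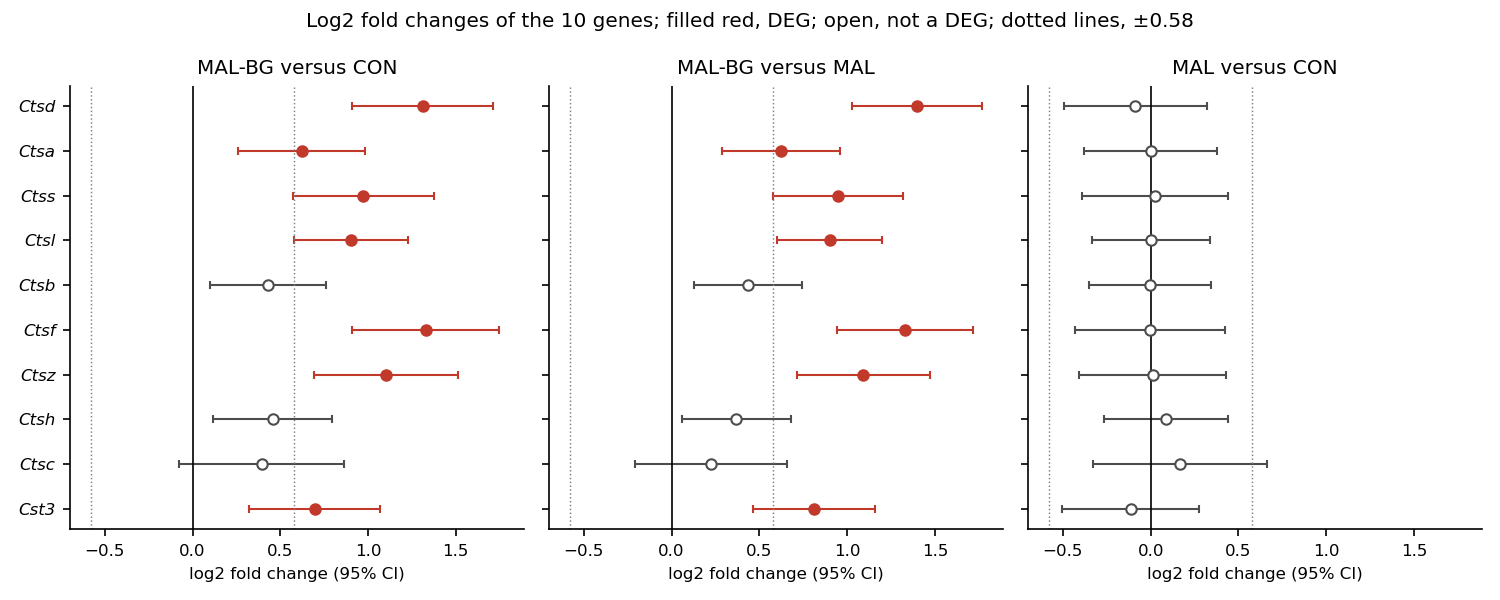
Log2 fold changes with 95% confidence intervals (x axis) of the 10 genes in the 3 comparisons under TMM scaling, with filled red points for DEGs, open points for other genes, and dotted lines at 0.58 and -0.58. In MAL versus CON all 10 intervals contain 0. Under microglia marker scaling, which is not drawn here, the MAL-BG values of Ctsa, Ctsb, Ctsc, and Ctsh turn negative in both comparisons and that of Cst3 does so against CON.

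Between MAL and CON, 0 of the 10 members were DEGs in edgeR's test, as were 0% of all genes. At an unadjusted p under 0.05 there were 212 genes, none of them a member, and DESeq2 also called 0 genes, with 241 at an unadjusted p under 0.05. Log2 fold changes of the members lay between -0.11 (Cst3) and 0.17 (Ctsc), with adjusted p = 0.999 or above. The 95% intervals were -0.49 to 0.32 for Ctsd, -0.39 to 0.44 for Ctss, and -0.50 to 0.28 for Cst3. Differences within those bounds were not excluded by these libraries. In CON the highest library for all 10 members was CON 1, and in MAL it was MAL 4. The same libraries had the highest microglia marker sums of their groups (24935 and 26467 CPM) and the lowest choroid plexus marker sums (10770.1 and 5021 CPM).

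Together the 10 members took 2.76% ± 0.28 of all counts in CON (SD over 4 libraries), 2.65% ± 0.31 in MAL (over 5), and 4.66% ± 0.49 in MAL-BG (over 7). To compare levels between genes, CPM was divided by the length of the best supported coding transcript. Per kilobase, Ctsd and Ctss made up nearly equal parts of the 9 cathepsins in CON, at 36.5% ± 0.76 and 36.0% ± 1.004, followed by Ctsz at 7.86% ± 0.55 and Ctsb at 5.75% ± 0.23 (SD, n = 4). In MAL-BG Ctsd was at 43.2% ± 4.81, Ctss at 33.8% ± 4.92, Ctsz at 8.10% ± 0.88, and Ctsb at 3.72% ± 0.49 (SD, n = 7). In CON the order went on with Ctsa (4.46% ± 0.33) and Ctsl (4.43% ± 0.11), which differed by less than their spread, as did Ctsd and Ctss at its top, and it ended with Ctsh (2.64% ± 0.23), Ctsc (1.30% ± 0.019), and Ctsf (1.11% ± 0.11). In MAL-BG Ctsf (1.34% ± 0.18) was above Ctsc (0.838% ± 0.34) in mean, but their values overlapped between libraries. These shares are descriptions and were not tested.

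The ratio of Ctsd to Ctsb within each library is free of the scaling. Per kilobase it was 5.85 to 6.54 in CON, 5.50 to 6.55 in MAL, and 9.18 to 14.3 in MAL-BG, so the groups of exposed and unexposed mice did not overlap. The pair was not set in advance, and the log2 fold changes against CON were 1.31 for Ctsd and 0.43 for Ctsb. The separation thus follows from their unequal folds and is not a further result. How many other gene pairs separate as well was not counted. Within MAL-BG the ratio fell into libraries 1, 5, and 6 (9.18 to 9.97) and libraries 2, 3, 4, and 7 (13.03 to 14.3). Libraries 6, 1, and 5 were also the 3 highest for Ctsc (and 1, 6, and 5 for Ctsh), while MAL-BG 2 was the highest for Ctsd, Ctsf, and Ctsz and the lowest for Ctsc and Ctss. The processing code of the study names a batch term, but the batch of a column is not given in the sources used here. Batch and this division therefore cannot be told apart. The part of batch in the differences between MAL-BG and the other groups was not tested either. The ratio of Cst3 to the 7 cysteine cathepsins per kilobase was 3.44 ± 0.22 for CON, 3.13 ± 0.18 for MAL, and 2.95 ± 0.28 for MAL-BG (mean ± SD), with overlapping libraries in all groups.

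**Figure D4:**
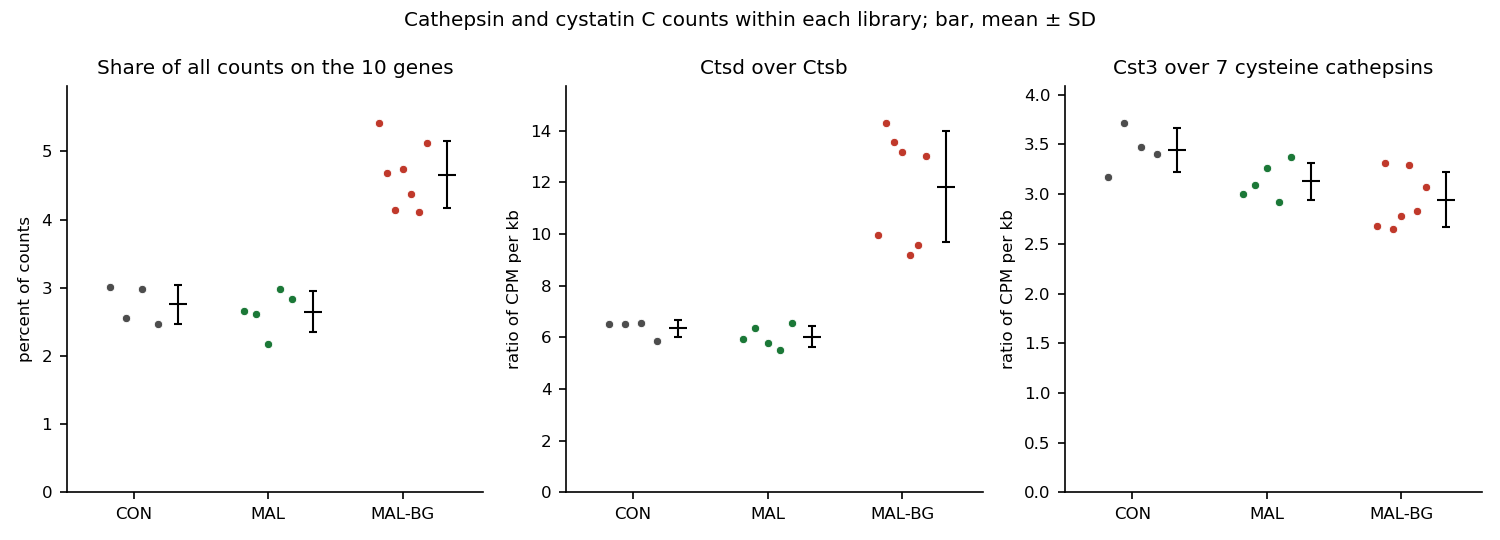
Share of all counts on the 10 genes in percent, ratio of Ctsd to Ctsb, and ratio of Cst3 to the 7 cysteine cathepsins (y axes, from 0; ratios of CPM per kilobase) for each library by group, with the mean ± SD as a bar. The first 2 panels separate MAL-BG from the other libraries (4.11% to 5.42% and 9.18 to 14.3), while the ratio of Cst3 to the cysteine cathepsins overlaps between groups. The pair of Ctsd and Ctsb was not set in advance, and its separation follows from their unequal folds.

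Other genes of the cathepsin system were taken from lists of names. Of all genes, 11.4% were DEGs that were higher and 21.7% DEGs that were lower in MAL-BG than CON. Of the other 14 mouse cathepsins, 9 did not pass the filter. Of the 5 tested, Ctsw, a cathepsin of cytotoxic lymphocytes, was a DEG against CON (log2 fold change 0.96, SE 0.25, adjusted p = 0.00614) at a mean of 8.85 CPM in MAL-BG. Ctso had a log2 value of 0.43 (adjusted p = 0.00559), which passed the test but not the threshold, and Ctse, Ctsk, and Ctsg had values of -0.30, -0.20, and 3.74 that did not pass it (adjusted p = 0.642, 0.741, and 0.0826). With microglia marker scaling 0 of the 5 were DEGs that were higher (0.577% of all genes).

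Among 6 tested inhibitors, 3 were DEGs that were higher than in CON. They were Cst7, a cystatin that acts within the endolysosome, at 0.82 (SE 0.23, adjusted p = 0.00823), Stfa2l1, a stefin, at 2.64 (SE 0.68, adjusted p = 0.00490), and Kng2, a kininogen, at 1.08 (SE 0.42, adjusted p = 0.0456) on the log2 scale. The mean CPM in MAL-BG was 11.99 for Cst7, 1.41 for Stfa2l1, and 1.88 for Kng2, against 20400.4 for Cst3. Stfa2l1 reached at most 0.307 CPM in CON and 0.403 in MAL, too few counts for the filter. It was therefore tested only because of its level in MAL-BG. Cstb, the cytosolic cystatin B, Serpina3g, and Serpinb6a had values of -0.04, 0.36, and -0.04 (adjusted p = 0.842, 0.427, and 0.901). With offsets for length and GC content 1 of the 6 was a DEG. With microglia marker scaling 1 was a DEG that was higher and 2 were lower (0.577% and 59.4% of all genes).

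Of 15 genes for maturation and sorting of lysosomal enzymes, 2 were DEGs that were higher and 1 that was lower in MAL-BG than in CON. The shares of all genes were 11.4% and 21.7%. Lgmn, the asparaginyl endopeptidase that cleaves several cathepsin precursors, was at 2206 ± 566 CPM for CON, 2303 ± 678 for MAL, and 6119.8 ± 1477 for MAL-BG (mean ± SD), and differed from CON by 1.47 on the log2 scale (SE 0.24, adjusted p = 2.40e-04). Grn, the precursor of granulins, was at 1227 ± 342, 1223 ± 264, and 2877 ± 512 CPM, with a log2 fold change of 1.23 (SE 0.20, adjusted p = 2.18e-04). Igf2r, the large mannose 6-phosphate receptor, fell from 47.6 ± 20.2 CPM in CON and 43.1 ± 21.7 in MAL to 14.3 ± 6.98 in MAL-BG, a change of -1.73 (SE 0.40, adjusted p = 0.00239). M6pr, the small receptor, was also a DEG that was higher against MAL, and is named here after its values were seen. The number of DEGs that were higher was 4 or 5 when CON 3 or MAL-BG 2, 3, 4, or 7 was left out, and 6 with scaling by the mean log2 CPM of all genes. With microglia marker scaling 1 was a DEG that was higher and 8 were lower (0.577% and 59.4% of all genes).

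Of 6 other lysosomal peptidases, Lgmn (above) and Prcp, a carboxypeptidase, were DEGs that were higher than in CON. Prcp was at 105 ± 15.2 CPM for CON, 114 ± 17.98 for MAL, and 176 ± 18.3 for MAL-BG (log2 fold change 0.74, SE 0.13, adjusted p = 2.99e-04). Tpp1, Scpep1, Dpp7, and Napsa had log2 values of -0.11, 0.02, 0.04, and -0.38 against CON, with adjusted p of 0.617, 0.956, 0.846, and 0.389. Napsa was a DEG that was lower against MAL, at -0.84 (adjusted p = 0.0446). That call was lost with mean log2 CPM scaling and without a filter. It was also lost without MAL 1, 2, or 3, or MAL-BG 2, 3, 4, 6, or 7. With marker scaling 1 of the 6 was higher and 4 were lower than in CON (0.577% and 59.4% of all genes). Among the 4 Mitf and Tfe factors, Tfeb, a regulator of lysosomal genes, was a DEG that was higher, at 0.78 (SE 0.15, adjusted p = 5.57e-04), and Tfe3, Mitf, and Tfec had values of 0.19, -0.23, and 0.15 (adjusted p = 0.250, 0.190, and 0.834). With marker scaling 0 of the 4 were DEGs that were higher and 2 were lower (0.577% and 59.4% of all genes).

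Of 6 serine proteases activated by Ctsc, 4 were DEGs with a higher level in MAL-BG than CON. Elane and Prtn3, proteases of immature neutrophils, had log2 fold changes of 5.93 and 4.51 with SE of 1.95 and 1.55 (adjusted p = 0.0206 and 0.0262). Their CPM in MAL-BG ran from 0.238 to 254 and from 0 to 188. Elane reached at most 2.23 CPM in CON, with a median of 0.265, and 0.766 in MAL. Ctsg reached at most 2.97 CPM in CON, with a median of 0.115, and 0.298 in MAL. Both thus passed the filter largely through MAL-BG libraries. Prtn3 reached at most 5.19 CPM in CON, with a median of 0.351, and 1.49 in MAL. Gzma, a granzyme of cytotoxic lymphocytes, was at 23.1 ± 3.95 CPM for CON, 18.5 ± 2.89 for MAL, and 95.2 ± 35.6 for MAL-BG, a change of 2.04 (SE 0.28, adjusted p = 6.01e-05). Cma1, a chymase of mast cells, was at 1.79 (SE 0.43, adjusted p = 0.00324), and Ctsg and Gzmb had values of 3.74 and 0.50 (adjusted p = 0.0826 and 0.148). The list held 2 DEGs without MAL-BG 5, the library with the highest neutrophil markers, and also 2 without CON 3 or without CON 4. With microglia marker scaling 4 of the 6 were DEGs that were higher (0.577% of all genes).

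Of 6 genes of the MHC class II path, in which Ctss acts, H2-DMa and H2-DMb1, the subunits of the peptide exchanger, were DEGs that were higher than in CON, at 0.95 (SE 0.17, adjusted p = 4.28e-04) and 0.76 (SE 0.15, adjusted p = 8.46e-04). Cd74, the invariant chain, and the class II chains H2-Aa and H2-Ab1 were not, at -0.16, -0.53, and -0.13 (adjusted p = 0.671, 0.178, and 0.744), nor was Ifi30, a lysosomal thiol reductase, at 0.30 (adjusted p = 0.188). Against MAL, H2-DMa was a DEG that was higher, at 0.75 (adjusted p = 0.00129), while Cd74, H2-Aa, and H2-Ab1 were DEGs that were lower, at -0.73, -1.17, and -0.72 (adjusted p = 0.0387, 0.00429, and 0.0360), where 20.2% of all genes were. Of these 3, 1 was a DEG without MAL 2, MAL 4, or MAL-BG 2, 3, 4, 5, or 7. The same number held with mean log2 CPM scaling, both with and without offsets for length and GC content. With microglia marker scaling 0 of the 6 were DEGs higher than in CON and 3 were lower (0.577% and 59.4% of all genes). In MAL versus CON 0 genes of any of these lists were DEGs.

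**Figure D5:**
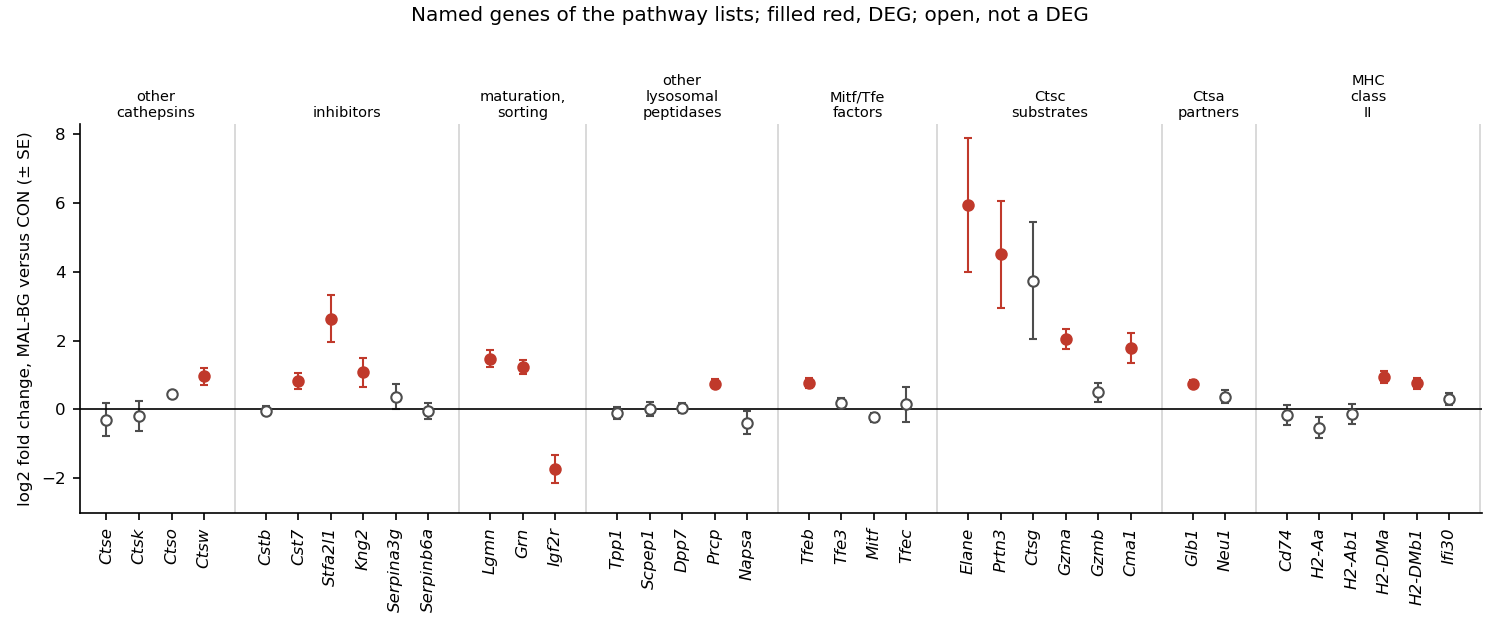
Log2 fold changes (± SE, y axis) in MAL-BG versus CON of the named genes of 8 lists under TMM scaling, with filled red points for DEGs and open points for other genes. Lgmn and Grn lie near the level of Ctsd and Ctsf (1.31 and 1.33), Igf2r is the only DEG below 0, and Elane, Prtn3, and Ctsg have the widest errors. With microglia marker scaling, DEGs above 0 number 4 for the Ctsc substrates and 1 each for inhibitors, maturation and sorting, and other peptidases. They number 0 for the other lists, among them the Mitf/Tfe list.

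Genes with the most similar profiles were ranked by the root mean square difference of log2 CPM, centred on each gene's mean, over the 16 libraries. For Ctsd they were Orai1, a calcium channel of the plasma membrane, Pvrl2, an adhesion protein, C1qa, a chain of complement C1q, Itgb3, an integrin chain, and Grn, at differences of 0.13 to 0.15. For Ctss they were Pros1 (protein S), Clic1, Cyp4v3, Serinc3, and Abhd17c, at 0.14 to 0.16. For Cst3 they were Rnf130, Klk8, Cryl1, Oaf, and Vkorc1, at 0.10 to 0.12. C1qa was at a mean of 2954 CPM for CON, 2890.4 for MAL, and 7102 for MAL-BG. Among the members themselves, the most similar pair was Ctsl and Ctss (0.12) and the least similar was Ctsc and Ctsf (0.72). All these genes share the libraries and their scaling, so the ranking is a description only.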

How the data were processed

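Libraries were made from CD11b+ cells of mouse brain (CON, 4 libraries; MAL, 5; MAL-BG, 7). Per the labels and Methods, the authors aligned stranded poly(A) reads to GRCm38.p6 with STAR and deposited raw counts per gene made with HTSeq; counting mode and strand setting are not given in the sources used here, nor is the batch of a column, so the batch term of the study's code was not fitted. Counts were tested with edgeR 4.0.16 (quasi-likelihood, TMM, R 4.3.3), with DESeq2 1.42.0 as an alternative, on the 14565 of 24421 genes whose count exceeded 10 in 4 or more libraries. All 3 groups were in 1 fit, with Benjamini-Hochberg adjustment over the genes tested. The thresholds for a DEG were 0.05 for the adjusted p and 0.58 for the size of the log2 fold change. Nothing ties a column to its animal, so p-values measure the spread between libraries, all pairs of which differed by more than counting noise. Depth was 10312703 to 18705202 counts per library, and was higher in all MAL-BG libraries than in the others. CPM per kilobase used the best supported coding transcript (GENCODE vM21). The fit was tested on simulated data. Python 3.11.15 and pandas 2.3.3 made the summaries.

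The members and lists were chosen with earlier results of these data known. Named genes were the 10 members, each list's genes where up to 6 were tested and otherwise its DEGs against CON (at most 4 in each direction), and the 5 genes with the profile nearest to Ctsd, Ctss, and Cst3. Alternatives were other scalings (DESeq2 size factors, upper quartile, mean log2 CPM, and the mean of 15 microglia markers), other filters, no fold change threshold, 2 groups only, offsets for length and GC content (known for 96.3% of genes), and each library left out in turn.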

Additional observations from a re-analysis of the deposited data

Results flagged for a closer look

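Among 30 sets of values (10 genes in 3 groups), 1 held a library that stood apart from the rest of its group. Ctsc was at 330.2 CPM in library MAL 4, where the gap to the next library divided by the range of the group was 0.712, just over the limit of 0.71 for 5 libraries. Chance alone gives such a flag in about 1 in 20 groups. MAL 4 was the highest MAL library for all 10 genes.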

How the results depend on the processing

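With microglia marker scaling, 1 member was a DEG against CON and 2 were against MAL, in place of 7 and 7, and the log2 values that changed sign were -0.14 for Ctsa, -0.35 for Ctsb, -0.41 for Ctsc, -0.35 for Ctsh, and -0.081 for Cst3 against CON, and -0.075 for Ctsa, -0.27 for Ctsb, -0.52 for Ctsc, and -0.36 for Ctsh against MAL. The number of member DEGs was otherwise 6 to 10, and 6 to 7 when single libraries were left out. Between MAL and CON the signs of values near 0 were not stable. With DESeq2 size factors and with DESeq2, Ctsl was at -0.0064. With upper-quartile scaling Ctsa, Ctsb, and Ctsf were at 0.0071, 0.0037, and 0.0050, and with mean log2 CPM scaling at 0.021, 0.022, and 0.019. With marker scaling Ctsl, Ctss, and Ctsz were at -0.056, -0.051, and -0.052. Ctsa was at 0.0011 without a filter and at 0.00053 with edgeR's filter. With 2 groups only, Ctsa, Ctsb, and Ctsf were at 0.016, 0.013, and 0.013. With length and GC offsets Ctsa, Ctsf, and Ctsl were at 0.016, 0.037, and -0.024, and with these and mean log2 CPM scaling Ctsa, Ctsb, Ctsf, and Ctsl were at 0.040, 0.016, 0.061, and -0.0031. With single libraries left out, values ran from -0.12 to 0.17 for Ctsa, -0.098 to 0.091 for Ctsb, -0.17 to 0.021 for Ctsd, -0.13 to 0.18 for Ctsf, -0.079 to 0.12 for Ctsl, -0.074 to 0.11 for Ctss, and -0.11 to 0.17 for Ctsz. The cause was not tested. No paired analysis was possible because the running numbers of the table's columns match no sample title. The number of libraries, not depth, limits the precision.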
